A study of Arabidopsis thaliana and Arabidopsis thaliana x Arabidopsis arenosa and Arabidopsis arenosa with 18 samples.

Results

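The genes of the mitochondrial genome were followed across seeds and fruits of crosses between Arabidopsis thaliana and Arabidopsis arenosa. They were taken as every row of the deposited gene count table whose locus begins with ATMG, without the rRNA loci ATMG00020, ATMG01380 and ATMG01390, which gave 143 of 33602 loci. Hybrids with a Col-0 (Col) mother, which the series' design text calls incompatible, and hybrids with a C24 mother, which it calls compatible, were set beside crosses within each species. Both mothers' lines derive from natural accessions of A. thaliana. The Col and C24 mothers carried 1 copy of a transgene that makes plants male sterile, in the controls as in the hybrids. Control fathers were Col-0 or C24 plants of the mother's own accession. The father of both hybrids was a diploid A. arenosa of the variety Strecno, and the labels' protocols give 1 plant for the hybrid seeds and a pair of plants for the siliques and the A. arenosa seeds, so few A. arenosa genotypes were sampled. The A. arenosa control had A. arenosa for both parents. The groups were Col control, C24 control, Col hybrid, C24 hybrid and A. arenosa control seeds, and whole siliques (the fruit with its seeds) of the Col hybrid and the C24 hybrid, all 3 days after pollination, with 2 libraries in each of the 7 groups. No control silique was among them. The silique and A. arenosa records carry a protocol text of their own, and whether those libraries were made together with the other seed libraries is not stated. Nothing in the labels says that the libraries of a group were separate harvests, and a p-value here reflects the spread between libraries, which may be technical.

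Plant mitochondria are as a rule inherited through the mother, so a hybrid seed is expected to hold the mitochondrial genome of its A. thaliana mother with a nucleus from both parents. The mitochondrial genome codes for subunits of the respiratory chain (complex I, III and IV) and of ATP synthase (complex V), for proteins that mature cytochrome c, for ribosomal proteins and for many open reading frames of no known function. The remaining subunits, the RNA polymerase and the splicing and editing factors are made in the nucleus and imported. In plant mitochondria a poly-A tail marks an RNA for decay, and the libraries were made from RNA selected for poly-A tails. The level of a mitochondrial RNA here is therefore the level of its tailed or carried-over molecules. Chromosome 2 of A. thaliana holds a large insertion of mitochondrial DNA, whose loci are close in sequence to genes of the organelle.

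Names for the ATMG loci came only from notes in the RefSeq annotation of TAIR10.1 that tie a nuclear locus on chromosome 2 to an ATMG protein. These notes reached 53 of the 143 loci, and the other 90 are given by locus alone. No gene lengths of these loci were used, so levels are compared between libraries and not between genes. Over all 14 libraries 61 of the 143 loci had no read, 15 had fewer than 10 reads and 67 had 10 or more.

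Between 66.1 and 100% of the 31-base words of a partner locus were found in the mitochondrial genome. For several genes all reads fell on the nuclear copy. ATMG00220, annotated as apocytochrome b of complex III, had 0 reads in all libraries together, while its nuclear partner AT2G07727 had 1022. The same held for ATMG00290 (mitochondrial ribosomal protein S4, 0 reads against 291 on AT2G07734) and for ATMG01270 (mitochondrial ribosomal protein S7, 0 against 344 on AT2G07696). It held also for ATMG01275, the first part of NADH dehydrogenase subunit 1, with 0 reads against 314 on AT2G07785. Other genes showed the reverse. ATMG00730 (cytochrome c oxidase subunit 3) had 2130 reads and its partner AT2G07687 had 712, and ATMG01080 (F0-ATPase subunit 9) had 2497 against 464 on AT2G07671. ATMG00410 (ATPase subunit 6-1) had 467 and its partner 1. Of the 22 loci with a named partner and no read of their own, 13 had reads on the partner and 9 had none there either. ATMG00480 (F0-ATPase subunit 8) was among those 9. How reads that match both places were counted is not given in the sources used here, so a count of 0 on an ATMG locus does not show that its RNA was absent.

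Sequencing depth ranged from 8931520 to 16149496 gene reads per library, except in A. arenosa control 1 and 2, which had 1777781 and 2089616. Levels are given as CPM, the counts scaled to library size with TMM normalisation factors, and 3 reads made 0.181 to 0.375 CPM in the deep libraries and 1.41 and 1.39 CPM in the A. arenosa libraries. All reads were counted on the A. thaliana genome, so a low value in A. arenosa seeds cannot be told apart from a sequence that no longer matched. The same limit holds for reads of A. arenosa alleles in the hybrids. Col control 1 stood apart, with reads on 31430 loci against 19596 to 28243 in the other libraries, and with 1.22% of its gene and transposon reads on transposable elements. Each A. thaliana control library is the sum of 2 sequencing records. The 5 seed coat markers summed to 3285 to 5632 CPM in the A. thaliana control seeds, 1502 to 2082 in hybrid seeds and 398 to 972 in siliques and A. arenosa seeds, and all 5 had reads in every library. The sum of 5 endosperm markers was 99.2 to 354 CPM in A. thaliana and hybrid seeds and 10.6 to 26.1 in siliques and A. arenosa seeds, where 2 of the 5 had reads in A. arenosa. Pollen markers came to 1072 and 9714 CPM in A. arenosa control 1 and 2, with the pollen gene AT3G62230 at 0 reads, to 44.8 to 149 CPM in siliques and to 2.70 to 21.0 CPM in the other seed libraries.

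The mitochondrial loci together took a small share of the reads, which was highest in A. arenosa seeds, lower in hybrid seeds, lower again in A. thaliana control seeds and lowest in siliques. In Col control 1 and 2 it was 0.0455 and 0.0299% of gene reads, and in C24 control 1 and 2 it was 0.0645 and 0.0424%. In hybrid seeds it was 0.150 and 0.126% for Col and 0.145 and 0.123% for C24, so that every hybrid seed library lay above every A. thaliana control library. In siliques it was 0.0110 and 0.0131% for Col and 0.0198 and 0.0212% for C24, below every seed library. In A. arenosa seeds it was 1.80 and 0.913%, above every other library. The group means of hybrid seeds were 3.66 times (Col) and 2.51 times (C24) those of their controls, and 11.4 and 6.55 times those of the siliques of the same cross.

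A single locus, ATMG00030, held 35.1 to 68.2% of the mitochondrial reads in A. thaliana and hybrid libraries and 89.5 and 88.0% in A. arenosa control 1 and 2. Without it the hybrid seeds were at 2.60 times (Col) and 3.31 times (C24) their controls. The share of the 3 mitochondrial rRNA loci had the same order by group mean. It was 0.295 to 0.451% in A. thaliana control seeds, 0.623 to 1.21% in hybrid seeds, 0.0690 to 0.382% in siliques and 2.07 to 2.69% in A. arenosa seeds. Siliques and control seeds overlapped there, with C24 hybrid silique 2 (0.382%) above C24 control 1 (0.295%) and Col control 2 (0.323%). The rRNA locus ATMG01390 averaged 1482 CPM in C24 siliques and 1044 CPM in C24 controls. Plastid genome loci without rRNA loci were also lowest in siliques (0.0365 to 0.117%) and highest in A. arenosa control 1 and 2 (6.13 and 2.36%). Their share was 0.400 to 1.01% in A. thaliana control and hybrid seeds, which overlapped. The part that the carry-over of RNA without tails has in the other values was not tested. In whole seeds and fruits a larger share of cells rich in mitochondria and more mitochondrial RNA per cell cannot be told apart. The part of A. arenosa reads that failed to match, and so are missing from the hybrids' total of gene reads, was not tested.

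**Figure D1:**
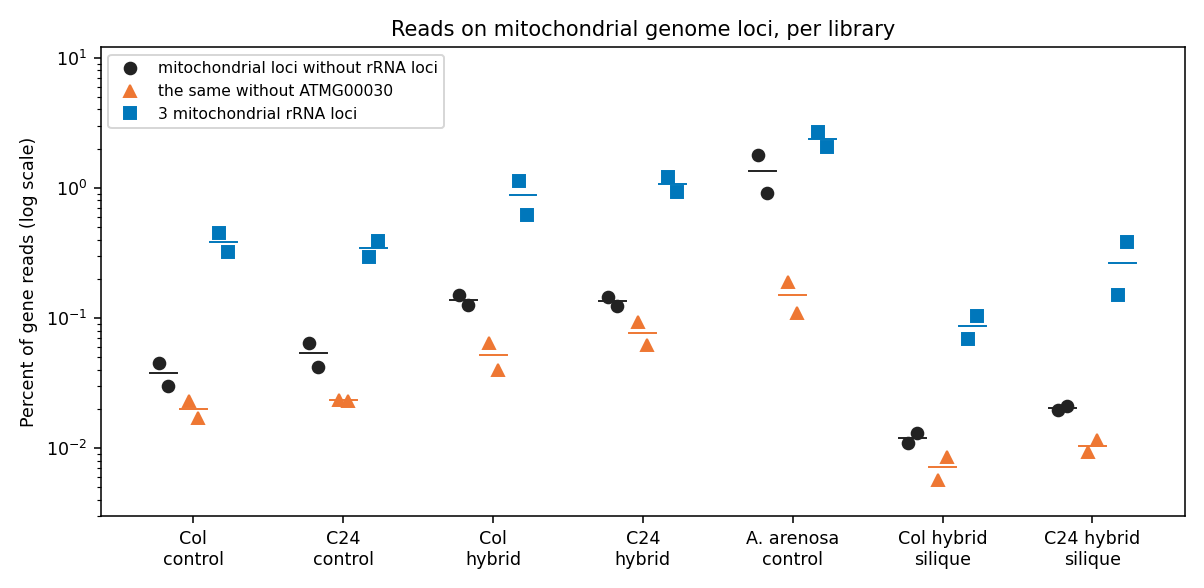
Percent of gene reads (log axis) in each library for the 143 mitochondrial loci (circles), the same loci without ATMG00030 (triangles) and the 3 mitochondrial rRNA loci (squares), with a short bar at the mean of the 2 libraries of a group. Every hybrid seed library (0.123 to 0.150% for the circles) lies above the A. thaliana controls (0.0299 to 0.0645%) and the siliques lie lowest (0.0110 to 0.0212%).

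Col hybrid seeds were set against Col control seeds to see what the incompatible cross did to each locus. Of the 143 loci, 43 passed the filter on low counts, and 10 of those were higher and 0 lower at an adjusted p under 0.05 (edgeR's quasi-likelihood test, Benjamini-Hochberg over all 20552 loci tested). That is 23.3% of those tested, where 16.8% of all loci tested were called. Over all loci tested 10.4% were called higher and 6.38% lower. The log2 fold change was above 0 for 38 of the 43, against 49.3% of all loci tested, with medians of 0.89 and -0.01. The counts bear the filter's own effect, since a locus with reads in 1 group only could pass through that group. Of the 27 loci with at least 10 reads in each of the 4 libraries, 9 were called, all higher. The share of all loci under that rule was not counted. With a minimum of 5 CPM in 2 libraries, 10 of 22 mitochondrial loci were called, all higher, beside 23.9% of all loci.

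ATMG00090 had 57.8 and 59.6 CPM in Col control 1 and 2 and 297 and 174 CPM in Col hybrid 1 and 2, a log2 fold change of 2.04 ± 0.28 (SE; adjusted p = 0.0036, edgeR). ATMG00030 went from 216 and 135 to 901 and 961 CPM (2.42 ± 0.37, adjusted p = 0.00489). The hybrid libraries lay above the control libraries at both loci, with no overlap. Among the smaller ones, ATMG00660 rose from 10.1 and 7.85 to 45.8 and 37.1 CPM (2.24 ± 0.22, adjusted p = 0.000868). ATMG00670 rose from 4.38 and 3.99 to 22.5 and 18.3 CPM (2.31 ± 0.32, adjusted p = 0.00352). The steepest rise was at ATMG01200, at 0.555 and 0.482 CPM in the control and 4.95 and 3.88 CPM in the hybrid (3.10 ± 0.49, adjusted p = 0.00607). ATMG00520 rose from 1.91 and 1.38 to 8.27 and 7.75 CPM (2.30 ± 0.29, adjusted p = 0.00244). At all 4 of these loci the hybrid libraries lay above the controls without overlap. The remaining called loci without a name, ATMG00690, ATMG00080 and ATMG00510, had log2 fold changes of 2.04, 1.83 and 1.54. ATMG00080 went from 16.2 and 15.3 to 66.4 and 42.9 CPM, and ATMG00510 from 3.27 and 2.62 to 9.38 and 7.38 CPM.

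ATMG00730, the one called locus in the Col hybrid with a named product, codes for subunit 3 of cytochrome c oxidase, which passes electrons to oxygen. It rose from 8.33 and 6.74 CPM to 25.1 and 17.6 CPM (1.54 ± 0.23, adjusted p = 0.0049). The subunits of ATP synthase that were tested did not pass. ATMG01080 was at 5.49 and 3.72 CPM in the control and 5.08 and 7.88 in the hybrid (0.49 ± 0.35, adjusted p = 0.364), and its libraries overlapped. ATMG00410 was at 2.53 and 1.38 against 4.95 and 2.38 CPM (0.94 ± 0.51, adjusted p = 0.233), and ATMG01190, annotated as ATP synthase subunit 1, at 0.494 and 0.275 against 2.08 and 1.13 CPM (2.06 ± 0.82, adjusted p = 0.123). ATMG01090, annotated as ATP synthase 9, had a log2 fold change of 0.75 ± 0.81 (adjusted p = 0.549). In a fit over all 7 groups 5 of the 10 calls ended, among them ATMG00090 (adjusted p = 0.0778) and ATMG00730 (0.135). That fit called 4.67% of all loci tested, against 16.8% in the main fit. ATMG00030, ATMG00520, ATMG00660, ATMG00670 and ATMG01200 were called under every alternative tried.

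C24 hybrid seeds, the compatible cross, gave more calls against C24 control seeds. Of 43 loci tested 19 were higher and 1 lower (46.5%), beside 31.8% of all loci tested. Those higher made 44.2% of the 43, against 16.8% of all loci called higher and 15% called lower. The median log2 fold change was 1.5, against 0.00 over all loci tested, and 41 of the 43 were above 0. Of 27 loci with at least 10 reads in each library compared, 16 were called, all higher, with no count of all loci under that rule. With a minimum of 5 CPM in 2 libraries, 16 of 22 mitochondrial loci were called, all higher, beside 44.1% of all loci.

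ATMG00730 rose from 6.75 and 6.20 CPM in C24 control 1 and 2 to 42.6 and 35.2 CPM in C24 hybrid 1 and 2 (2.64 ± 0.24, adjusted p = 0.000303). ATMG00520 rose from 0.758 and 0.948 to 8.98 and 8.36 CPM (3.39 ± 0.31, adjusted p = 0.000318). ATMG00090 rose from 104 and 118 to 443 and 294 CPM (1.79 ± 0.28, adjusted p = 0.0023). At these loci each hybrid library lay above each control library. ATMG00690 went from 11.3 and 14.3 to 62.6 and 49.1 CPM (2.19 ± 0.24, adjusted p = 0.000605), and ATMG01360 from 17.3 and 19.8 to 64.8 and 48.2 CPM (1.66 ± 0.26, adjusted p = 0.00236). Of genes with a named product, ATMG00410 (ATPase subunit 6-1) rose from 2.34 and 1.31 to 6.65 and 5.67 CPM (1.79 ± 0.51, adjusted p = 0.0283). ATMG01200 and ATMG00670 rose as in the Col cross, the first from 0.896 and 0.365 to 7.15 and 5.77 CPM (3.37 ± 0.49, adjusted p = 0.0017) and the second from 3.45 and 3.06 to 25.7 and 13.6 CPM (2.65 ± 0.33, adjusted p = 0.000923). ATMG00660 rose from 7.65 and 5.69 to 35.0 and 36.7 CPM (2.47 ± 0.22, adjusted p = 0.000307). ATMG00560, annotated as a nucleic acid-binding protein with an OB fold, rose from 0.965 and 0.511 to 6.74 and 5.09 CPM (3.03 ± 0.56, adjusted p = 0.00469).

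ATMG00030 was at 435 and 223 CPM in the C24 control and 550 and 678 in the C24 hybrid, which did not pass (0.94 ± 0.35, adjusted p = 0.0738), although the libraries did not overlap. ATMG01080 was again close, at 5.17 and 3.36 against 6.65 and 6.34 CPM (0.65 ± 0.36, adjusted p = 0.201). ATMG01330 had 3 reads in the C24 control and 26 in the C24 hybrid, a ratio of 10.9 (exact 95% interval 3.34 to 56.3, counting error only), and its call (adjusted p = 0.0446) ended without any of the 4 libraries compared (0.378 to 0.522). The locus called lower was ATMG00130, at 1.24 and 2.12 CPM against 0.250 and 0.192 CPM (-2.80 ± 0.83, adjusted p = 0.0333). That call ended without any of the 4 libraries compared (adjusted p from 0.182 to 0.509). Without C24 hybrid 1, 13 loci were called in all, all higher, and the ATMG00410 call ended (adjusted p = 0.0862). That call ended also without C24 control 2 (0.0903). The fit over all 7 groups called 10, all higher, beside 17.4% of all loci tested.

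**Figure D2:**
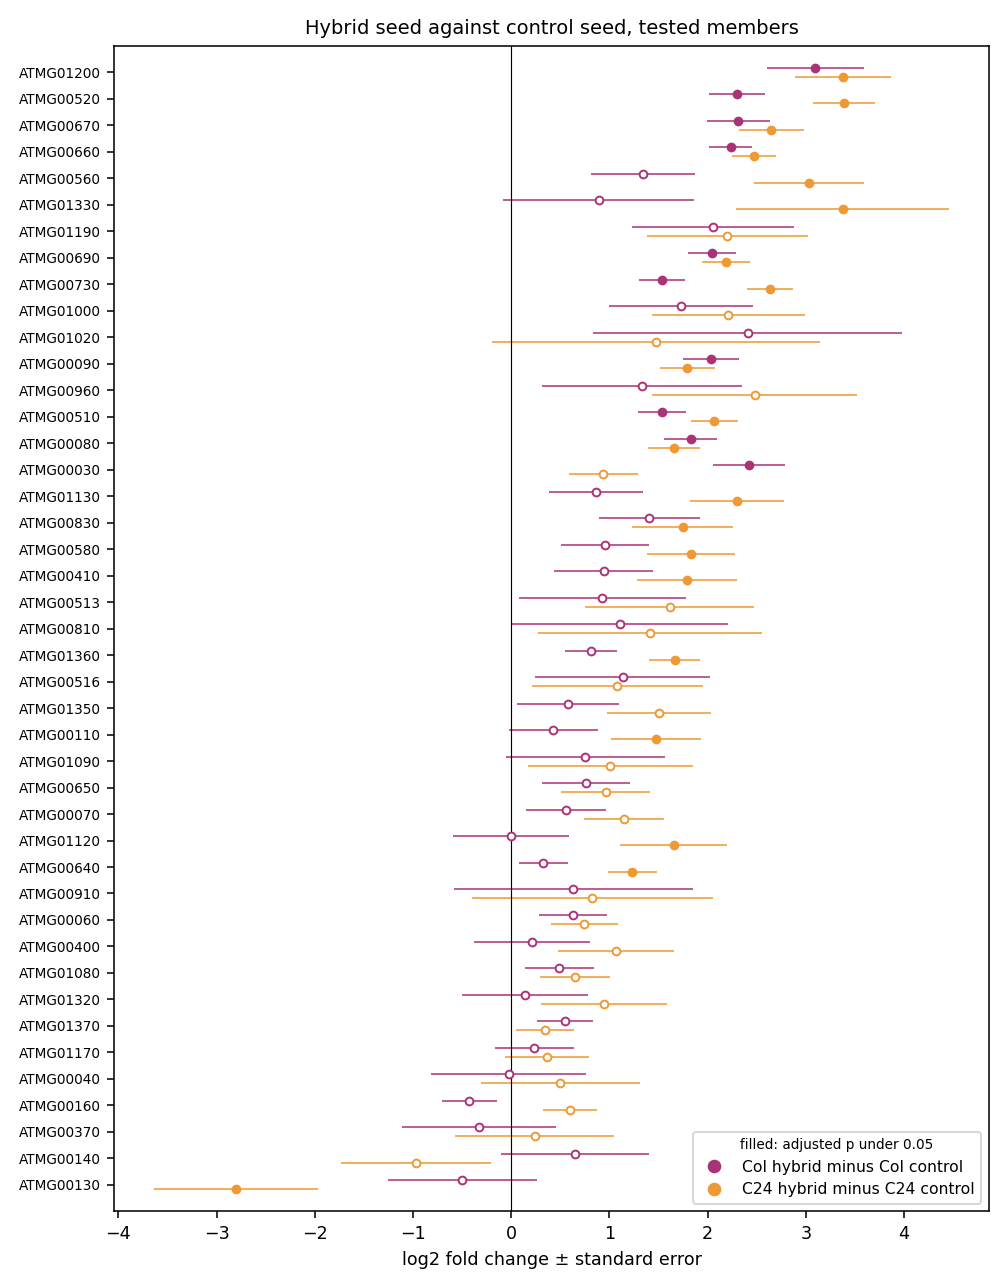
Log2 fold change ± standard error of hybrid seed against control seed for the 43 mitochondrial loci tested, with the Col cross above the C24 cross on each line and filled points at an adjusted p under 0.05. Filled points lie to the right of 0 except ATMG00130 in the C24 cross (-2.80), and ATMG01200, ATMG00520, ATMG00670 and ATMG00660 are filled for both.

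Some of the nuclear copies were called as well. Of 24 partners tested, 3 were higher and 0 lower in the Col hybrid, where 10.4% of all loci tested were called higher, so the share was near that of all loci. In the C24 hybrid 11 were higher and 0 lower, where 16.8% of all loci were called higher. AT2G07708, the partner of ATMG00500, had 25.1 and 25.3 CPM in Col control seeds and 65.0 and 49.9 in Col hybrid seeds (1.23 ± 0.16, adjusted p = 0.00284). It went from 22.3 and 25 to 57.8 and 51.5 CPM in the C24 cross (1.26 ± 0.16, adjusted p = 0.00101), while ATMG00500 itself had 1 read in all libraries. The apocytochrome b copy AT2G07727 rose in the C24 cross from 4.07 and 2.12 to 13.6 and 11.5 CPM (2.06 ± 0.50, adjusted p = 0.0151), and in the Col cross it was at 5.92 and 2.68 against 11.1 and 5.50 CPM (0.98 ± 0.49, adjusted p = 0.199). The copy of the NADH dehydrogenase gene, AT2G07785, rose in the C24 cross by 2.88 ± 0.47 on the log2 scale (adjusted p = 0.00271) and was not called in the Col cross (1.23 ± 0.44, adjusted p = 0.0926). With the reads of each partner added to its ATMG locus, 60 loci were tested, of which 14 were called in the Col cross, all higher, and 28 in the C24 cross, 27 of them higher. Of all loci in that fit 16.8 and 31.8% were called, and the larger counts came with more members tested. The fit over all 7 groups ended the calls of AT2G07708 in both crosses (adjusted p = 0.145 and 0.0864) and of AT2G07727 (0.107). Whether these reads came from the organelle or the nucleus cannot be told apart.

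The hybrid effect of the Col cross was next tested against that of the C24 cross. No mitochondrial locus of 43 was called for this difference by edgeR, where 1.39% of all loci tested were called, 0.414% higher and 0.973% lower. At an unadjusted p under 0.05 there were 6, and DESeq2 called 1. Without C24 control 2 edgeR called 1 as well. Of the 10 loci higher in the Col hybrid, 9 were also among the 19 higher in the C24 hybrid. The tenth, ATMG00030, had the difference 1.49 ± 0.49 on the log2 scale (adjusted p = 0.197), and for ATMG00730 it was -1.10 ± 0.33 (adjusted p = 0.158). The median of the difference over the 43 loci was -0.48, against -0.02 over all loci, and 35 of the 43 were below 0.

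Between the hybrid seeds themselves, 0 loci were higher in Col and 2 were lower (4.65% of 43), beside 9.78% of all loci tested, 5.2% called higher and 4.58% lower. ATMG01360 had 28.4 and 18.8 CPM in the Col hybrid and 64.8 and 48.2 CPM in the C24 hybrid (-1.28 ± 0.26, adjusted p = 0.0171). ATMG00730 had 25.1 and 17.6 against 42.6 and 35.2 CPM (-0.88 ± 0.22, adjusted p = 0.0393), and its nuclear copy AT2G07687 was lower too, at 5.60 and 4.75 against 13.9 and 10.7 CPM (-1.27 ± 0.29, adjusted p = 0.0294). Both calls of the ATMG loci ended without Col hybrid 2 (adjusted p = 0.0693 and 0.321) and without C24 hybrid 1 (0.0662 and 0.244), and without Col hybrid 1 there were 5 calls, all lower in Col. Between Col and C24 control seeds 0 of 43 loci were called by edgeR, where 16.8% of all loci tested were called, 7.84% higher and 8.91% lower. There, 4 had an unadjusted p under 0.05 and DESeq2 called 3, all lower in Col.

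**Figure D3:**
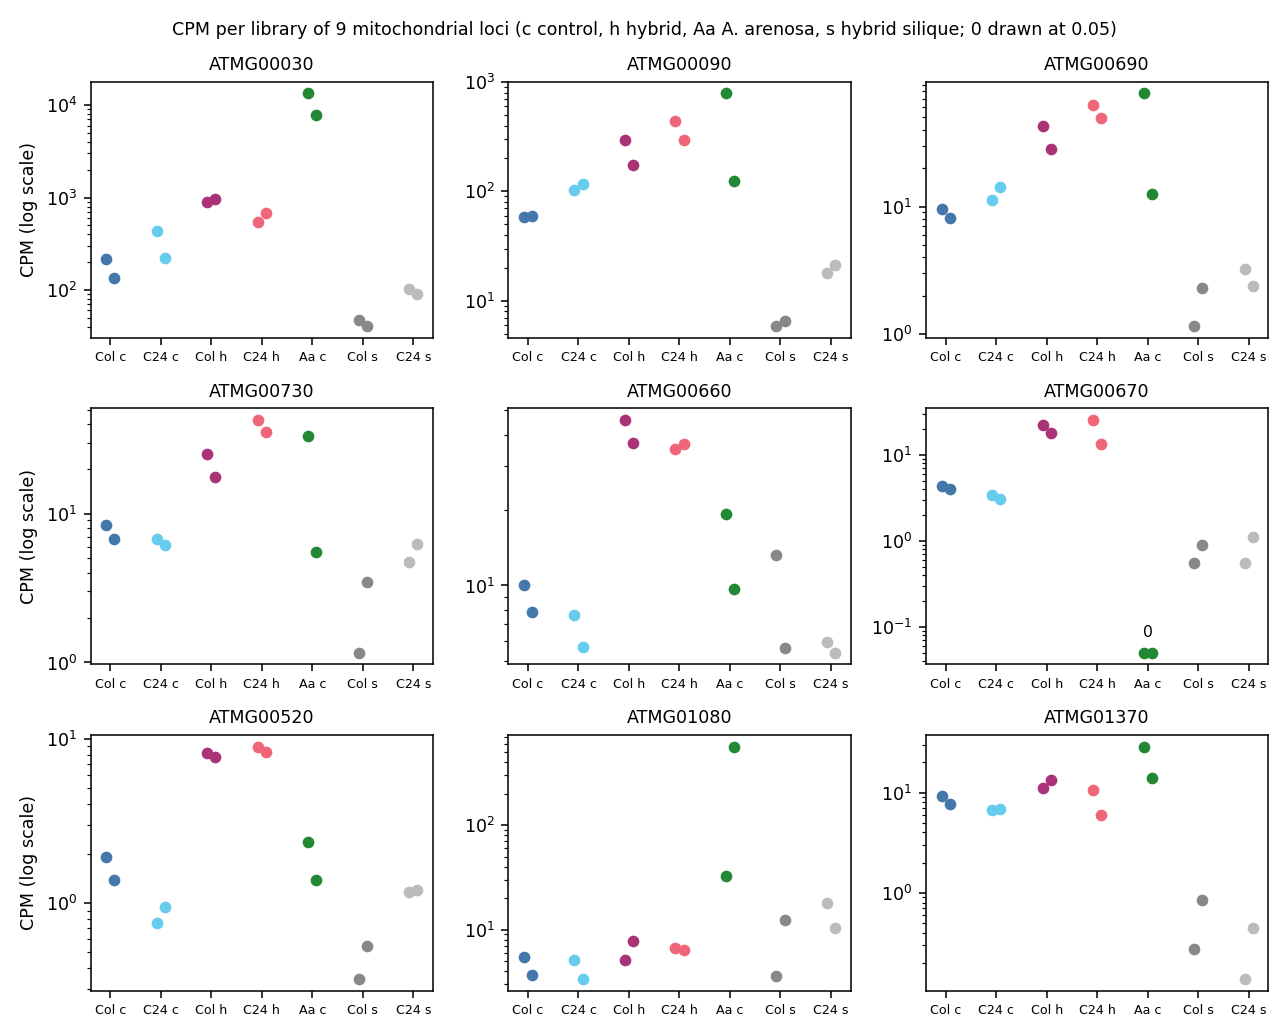
CPM (log axis, its own scale in each panel) of 9 mitochondrial loci in each of the 14 libraries, with 1 point per library and colours by group. ATMG00090, ATMG00690, ATMG00730, ATMG00660, ATMG00670 and ATMG00520 are higher in the hybrid seeds than in the A. thaliana controls. ATMG01080 stands at 32.4 and 565 CPM in A. arenosa, and ATMG00670 has no read there.

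Most subunits of the respiratory complexes are coded in the nucleus. Of all loci tested 16.8% were called in the Col cross, 10.4% higher, and 31.8% in the C24 cross, 16.8% higher. In the Col hybrid 2 of 20 complex I genes tested were higher, 1 of 6 of complex II, 4 of 12 of complex III, 5 of 9 of complex IV, 3 of 11 of complex V and 3 of 20 that maintain, transcribe or process the mitochondrial genome, with 0 lower in each of these lists. AT2G42310, the ESSS subunit of complex I, rose in the Col cross from 35.5 and 37.8 to 52.6 and 93.8 CPM (1.02 ± 0.25, adjusted p = 0.0262). The iron-sulfur subunit of complex III, AT5G13430, rose there by 0.81 ± 0.15 on the log2 scale (adjusted p = 0.00901), and AT4G32470, another complex III gene, by 0.87 ± 0.15 (adjusted p = 0.00892). In the C24 hybrid the complex I genes were 2 higher and 4 lower, complex II 1 and 3, complex III 5 and 1, complex IV 2 and 0, complex V 4 and 0, and the genome upkeep genes 5 and 0. COX10 (AT2G44520), which builds the heme of cytochrome oxidase, rose in the C24 cross from 43.1 and 47.0 to 73.3 and 70.6 CPM (0.73 ± 0.12, adjusted p = 0.00283). AT4G29480, subunit G of ATP synthase, rose in both crosses, by 0.66 ± 0.16 in Col (adjusted p = 0.0265) and 0.94 ± 0.16 in C24 (adjusted p = 0.00338). PMH1 (AT3G22310), an RNA helicase of mitochondria, rose in the Col cross from 31.8 and 40.1 to 68.3 and 53.5 CPM (0.80 ± 0.16, adjusted p = 0.013). List medians lay between -0.02 (complex II) and 0.55 (complex IV) in the Col cross and between -0.60 (complex II) and 0.34 (complex III) in the C24 cross, against 0.89 and 1.5 for the mitochondrial loci. The organelle's RNA polymerase gene MGP3 (AT1G68990) rose from 13.8 and 12.3 to 30.0 and 19.5 CPM in the Col cross (0.96 ± 0.21, adjusted p = 0.0184). In the C24 cross it rose from 14.8 and 15.1 to 24 and 23.5 CPM (0.72 ± 0.21, adjusted p = 0.0306). The hybrid libraries lay above the controls in both crosses, but the Col call ended without Col hybrid 1 (adjusted p = 0.122) and the C24 call ended without any of the 4 libraries compared (0.122 to 0.197). With all 7 groups fitted together neither was called (0.156 and 0.236). SDH4 (AT2G46505), a membrane anchor of succinate dehydrogenase (complex II), fell in the C24 cross from 184 and 227 to 70.5 and 85.9 CPM (-1.34 ± 0.16, adjusted p = 0.000723, edgeR). The call held under every alternative tried, none of which changed how reads matched the genome. Its count was also low in A. arenosa seeds, as given below, and the part of A. arenosa reads that failed to match was not tested. Of 28 nuclear genes called in the C24 hybrid and 19 in the Col hybrid, 2 in each cross were called under every alternative that tested them.

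AOX1A (AT3G22370), 1 of 5 alternative oxidases listed, moved in opposite directions in the crosses. Of the 5, 2 were tested, and the other one tested was called in neither cross. The AOX1A enzyme takes electrons before complex III and passes them to oxygen without pumping protons, and its gene is a textbook responder to disturbed mitochondria. It had 4.26 and 3.23 CPM in Col control seeds and 7.49 and 8.63 CPM in Col hybrid seeds (1.12 ± 0.26, adjusted p = 0.023). In C24 it had 8.27 and 9.99 CPM in the control and 3.91 and 3.08 CPM in the hybrid (-1.32 ± 0.26, adjusted p = 0.00648). The libraries of control and hybrid did not overlap in either cross. The difference of the hybrid effects was 2.44 ± 0.37 on the log2 scale (adjusted p = 0.0201, edgeR), and it was called under every alternative tried, with values from 2.33 to 2.81. The rise in the Col cross by itself was less firm, and ended without Col hybrid 2 (adjusted p = 0.0503) or Col control 2 (0.0539), with the compared groups alone (0.0802) and by DESeq2 (0.0742). The control level also differed, being lower in Col than in C24 (-1.28 ± 0.26, adjusted p = 0.0123).

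A gene of complex IV also differed between the crosses. AT2G47380, of the cytochrome c oxidase subunit Vc family, rose in the Col cross from 26.2 and 32.5 to 82.3 and 102 CPM (1.68 ± 0.16, adjusted p = 0.000868). In C24 it stood at 75.4 and 66.2 CPM in the control and 67.9 and 73.1 in the hybrid, where the libraries overlapped. The difference of effects was 1.64 ± 0.23 (adjusted p = 0.0155), and ended without C24 hybrid 1 (0.0564), with replicate 1 of each A. thaliana control left out (0.116) and with all 7 groups fitted together (0.0755). SDH3-2 (AT4G32210), another membrane anchor of succinate dehydrogenase, had reads almost only in crosses with a Col mother. It had 2.04 and 3.03 CPM in Col control seeds and 22.8 and 18.9 CPM in Col hybrid seeds (3.08 ± 0.41, adjusted p = 0.00309), and 1 and 3 reads in all in C24 control and C24 hybrid seeds. From 501 reads in Col hybrids and 3 in C24 hybrids the ratio was 160 (exact 95% interval 54.6 to 780, counting error only). Its near copy SDH3-1 (AT5G09600) holds 95.5% of its 31-base exon words and had 0 to 11 reads per library, so counts of this pair are uncertain. Whether the C24 sequence of SDH3-2 matched the genome used was not tested.

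**Figure D4:**
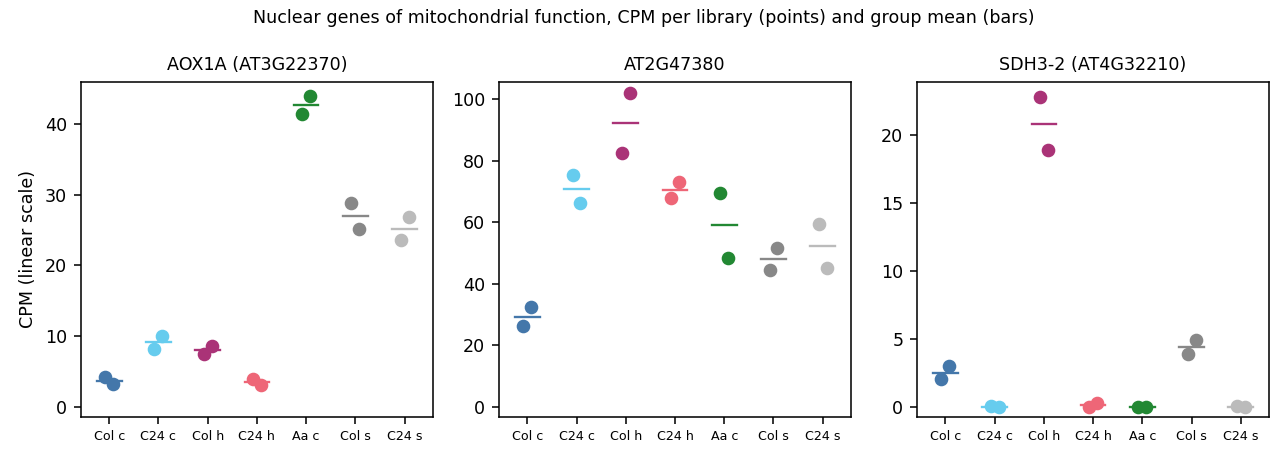
CPM (linear axis) of 3 nuclear genes of mitochondrial function in each library, with a bar at the group mean. AOX1A is higher in the Col hybrid (7.49 and 8.63) than in its control and lower in the C24 hybrid (3.91 and 3.08) than in its control, and SDH3-2 has reads chiefly in libraries with a Col mother.

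Whole siliques of each hybrid cross were compared with its seeds. Of 42 loci tested 0 were higher and 36 lower in Col hybrid siliques (85.7%), beside 53.2% of all loci called, 29.8% higher and 23.4% lower. In C24 hybrid siliques 0 were higher and 37 lower (88.1%), beside 58.8% of all loci called, 31.9% higher and 26.9% lower. Of these, 33 were called lower in both. Median log2 fold changes were -2.32 and -2.64, against 0.05 and 0.05 over all loci. Among loci with at least 10 reads in each library compared, 13 of 17 were called lower in Col and 19 of 21 in C24. All loci were not counted under that rule. With a minimum of 5 CPM in 2 libraries, 17 of 21 were called lower in Col and 20 of 21 in C24. Of all loci 56.1 and 61.4% were then called, in either direction.

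ATMG00090 fell from 297 and 174 CPM in Col hybrid seeds to 5.90 and 6.47 CPM in siliques (-5.22 ± 0.37, adjusted p = 1.22e-05), and from 443 and 294 to 17.9 and 21.1 CPM in C24 (-4.25 ± 0.35, adjusted p = 1.76e-05). ATMG00030 fell to 47.6 and 40.8 CPM in Col siliques (-4.35 ± 0.23, adjusted p = 4.75e-06) and to 103 and 89.7 CPM in C24 siliques (-2.67 ± 0.22, adjusted p = 1.68e-05). Seeds and siliques did not overlap at these loci. ATMG00830 had 140 reads in Col hybrid seeds and 0 in siliques, which makes it at least 31-fold lower, counting from 3 reads per library. In C24 it had 185 reads in seeds and 1 in siliques, 230-fold lower (exact 95% interval 40.7 to 9122). ATMG00370, annotated as Ycf1 protein, had 28 reads and 0 in the Col cross (at least 6.72-fold lower) and 20 and 2 in the C24 cross (12.4-fold lower, interval 3.02 to 110). ATMG00910 had no silique read in either cross, which makes it at least 4.11-fold lower in Col and 3.34-fold in C24. ATMG01370 fell from 11.2 and 13.4 to 0.274 and 0.847 CPM in Col (-4.36 ± 0.57, adjusted p = 0.000262) although it was not called between hybrid and control seeds (0.55 ± 0.28, adjusted p = 0.214).

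ATMG01080, the F0-ATPase subunit, was the one tested locus with a log2 fold change above 0 in both crosses. It had 5.08 and 7.88 CPM in Col hybrid seeds and 3.63 and 12.3 in siliques (0.36 ± 0.51, adjusted p = 0.57), and 6.65 and 6.34 against 17.8 and 10.4 CPM in C24 (1.12 ± 0.50, adjusted p = 0.0814). Its nuclear copy AT2G07671 fell in both, from 0.977 and 2.25 to 0.137 and 0.242 CPM in Col (-2.91 ± 0.70, adjusted p = 0.00718) and from 3.24 and 2.50 to 0.138 and 0.300 CPM in C24 (-3.68 ± 0.68, adjusted p = 0.00148). Subunit 3 of cytochrome c oxidase, ATMG00730, fell to 1.17 and 3.45 CPM in Col siliques (-3.17 ± 0.42, adjusted p = 0.000306) and to 4.75 and 6.22 in C24 siliques (-2.83 ± 0.40, adjusted p = 0.000327).

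ATMG00670 fell from 22.5 and 18.3 to 0.548 and 0.907 CPM in Col (-4.75 ± 0.47, adjusted p = 5.91e-05) and from 25.7 and 13.6 to 0.551 and 1.12 CPM in C24 (-4.57 ± 0.47, adjusted p = 5.91e-05). ATMG00690 fell from 43.1 and 28.1 to 1.17 and 2.30 CPM in Col (-4.31 ± 0.37, adjusted p = 2.74e-05) and from 62.6 and 49.1 to 3.24 and 2.40 CPM in C24 (-4.31 ± 0.36, adjusted p = 1.87e-05). At neither locus did seed and silique libraries overlap. ATMG00660 was less far apart, at 13.2 and 5.63 CPM in Col siliques against 45.8 and 37.1 in seeds.

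Nuclear genes of the respiratory chain shifted less in their list medians than the mitochondrial loci did. Of all loci tested 29.8% were called higher and 23.4% lower in Col siliques, and 31.9 and 26.9% in C24 siliques. In Col siliques 0 of 20 complex I genes were higher and 2 lower, against 0 and 4 of 6 for complex II, 1 and 3 of 12 for complex III, 0 and 4 of 9 for complex IV, and 1 and 3 of 11 for complex V. In C24 siliques these were 2 and 3, 1 and 3, 2 and 5, 1 and 2, and 1 and 7. The iron-sulfur subunit of complex III, AT5G13430, fell in both crosses, with log2 fold changes of -1.16 ± 0.20 in Col (adjusted p = 0.00139) and -1.09 ± 0.20 in C24 (adjusted p = 0.0016). List medians lay between -0.48 (complex II) and -0.17 (complex I) in the Col cross and between -0.67 (complex V) and -0.03 (complex I) in the C24 cross, for the 5 complexes. AOX1A rose in siliques, to 28.8 and 25.2 CPM in Col (1.79 ± 0.22, adjusted p = 0.000192, edgeR) and 23.6 and 26.8 CPM in C24 (2.84 ± 0.24, adjusted p = 1.92e-05, edgeR). The other alternative oxidase tested was called lower in Col siliques and was not called in C24 siliques. The mitochondrial rRNA and plastid shares were lower in siliques as well, as given above, and so were the endosperm and seed coat marker sums. Embryo markers summed to 106 to 156 CPM in siliques and 198 to 261 in hybrid seeds. Fruit wall and dehiscence zone markers summed to 383 to 446 CPM in siliques and 480 to 579 in hybrid seeds. Of these 5 fruit genes, 3 were called higher and 2 lower in siliques of both crosses. The part of tissue make-up and of rRNA carry-over in the falls of the mitochondrial loci was not tested. Without Col hybrid 1 the count of lower loci was 17 in Col, and without Col hybrid silique 1 it was 21. Without C24 hybrid 1 it was 21 in C24.

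**Figure D5:**
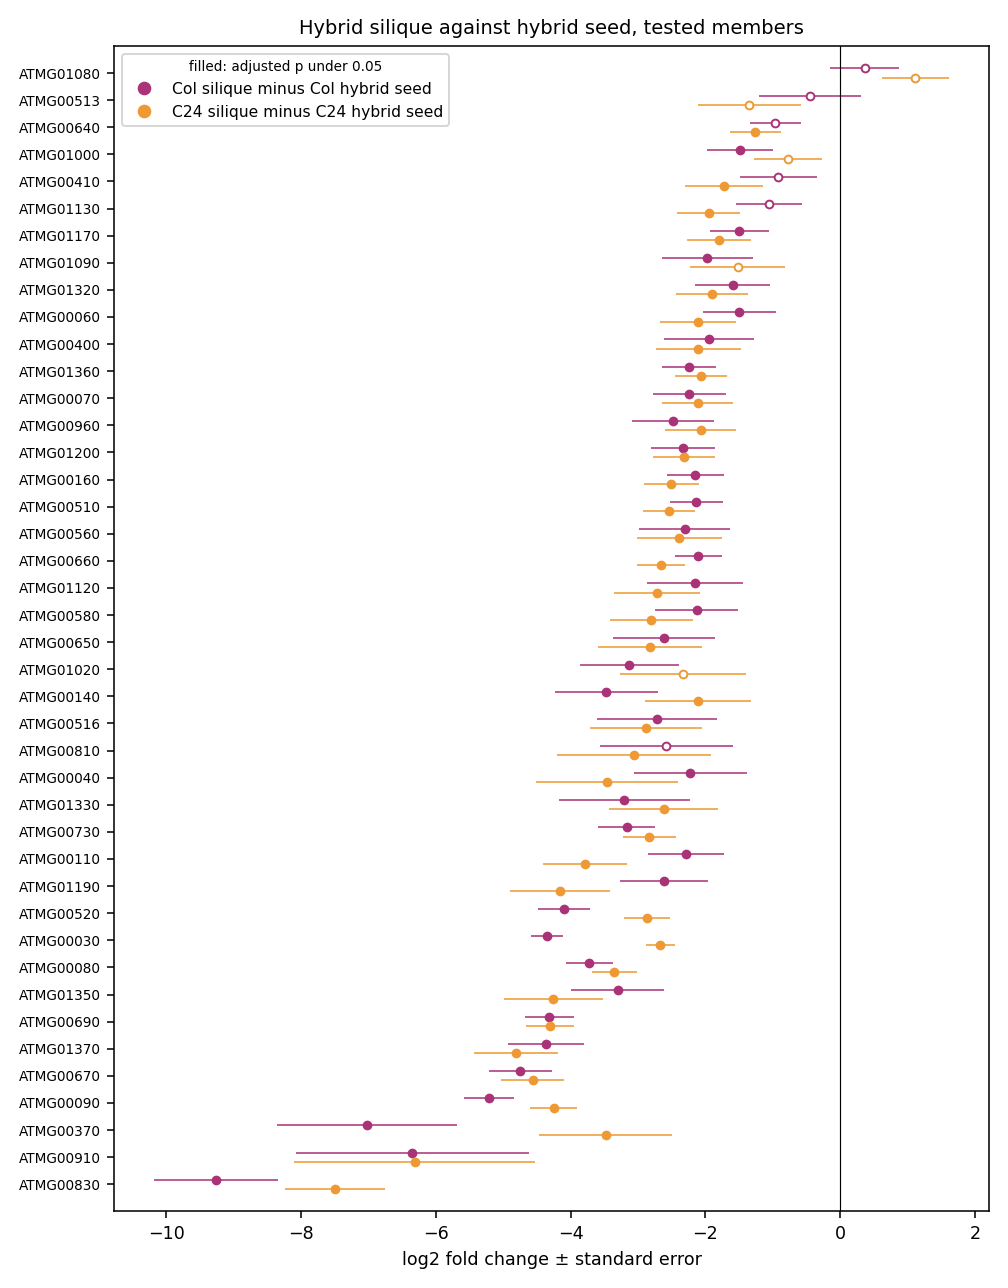
Log2 fold change ± standard error of hybrid silique against hybrid seed of the same cross for the 42 mitochondrial loci tested, with filled points at an adjusted p under 0.05. Points lie left of 0 except ATMG01080 (0.36 in Col and 1.12 in C24), and the fitted values of ATMG00830, ATMG00910 and ATMG00370 rest on 0 to 2 silique reads and are no bounds.

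Between the siliques of the crosses 0 loci were higher in Col and 2 were lower (4.76% of 42), beside 4.31% of all loci tested, 2.49% higher and 1.82% lower, a share near that of all loci. ATMG00030 was at 47.6 and 40.8 CPM in Col and 103 and 89.7 in C24 (-1.12 ± 0.21, adjusted p = 0.0147). ATMG00090 was at 5.90 and 6.47 against 17.9 and 21.1 CPM (-1.66 ± 0.33, adjusted p = 0.0227). The libraries did not overlap, yet both calls ended without Col hybrid silique 2 (adjusted p = 0.111 and 0.0827). The ATMG00030 call ended also without C24 hybrid silique 1 (0.0893), and the ATMG00090 call without Col hybrid silique 1 (0.108) or C24 hybrid silique 2 (0.0813).

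A. arenosa seeds were compared with the mean of the A. thaliana controls. Of 45 loci tested 26 were higher and 4 lower (66.7%), beside 55.3% of all loci tested, with a median log2 fold change of 1.53 against -0.24. The share called higher was 57.8%, against 24% of all loci, while 31.3% of all loci were called lower. ATMG00030 had 13443 and 7753 CPM, against 135 to 435 CPM in A. thaliana controls (5.45 ± 0.33, adjusted p = 2.98e-06). ATMG00160 had 45.6 and 144 CPM against 9.50 to 13.1 (3.06 ± 0.38, adjusted p = 0.000106), and both loci were above every A. thaliana control library.

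The 2 A. arenosa libraries differed widely at many loci. ATMG01080 had 32.4 CPM in library 1 and 565 in library 2, against 3.36 to 5.49 CPM in A. thaliana controls (6.05 ± 0.79, adjusted p = 0.000155), and its nuclear copy AT2G07671 had 10.3 and 131 CPM (6.40 ± 0.76, adjusted p = 8.5e-05). ATMG00090 went the other way, with 788 and 126 CPM (2.49 ± 0.53, adjusted p = 0.00293). ATMG00370 had 82.3 and 9.24 CPM (5.32 ± 0.69, adjusted p = 0.000151) and ATMG00140 had 44.2 and 7.39 CPM (4.29 ± 0.61, adjusted p = 0.000253). ATMG01400 was called too (3.97 ± 1.43, adjusted p = 0.0376), on 2 and 22 reads. Col control 1 had 26 reads of it and the other A. thaliana controls 0 to 4, so the groups overlapped, and the call ended without library 2 (1.41, adjusted p = 0.671). The pollen marker sum was 1072 CPM in library 1 and 9714 in library 2, and its part in these differences was not tested. Without library 1, 13 loci were called, 10 of them higher, and the call of ATMG00090 ended (0.62, adjusted p = 0.152). That of ATMG00730, at 33.4 and 5.54 CPM (1.46 ± 0.49, adjusted p = 0.0281), changed sign (-0.35, adjusted p = 0.563). Without library 2, 24 were called. The rises of ATMG00030, ATMG00140, ATMG00160, ATMG00370 and ATMG01080 were called under every alternative tried.

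Of the nuclear genes, more were lower than higher, as among all loci tested (31.3% lower and 24% higher). The part of A. arenosa reads that failed to match was not tested. Complex I had 1 higher and 9 lower of 20, complex II 0 and 4 of 6, complex III 1 and 4 of 12, complex IV 0 and 6 of 9, complex V 1 and 5 of 11 and the genome upkeep genes 5 and 8 of 20. SDH4 had 21.2 and 19.9 CPM (-2.87 ± 0.22, adjusted p = 8.84e-06) against 98.4 to 227 in the A. thaliana controls. AOX1A was higher, at 41.4 and 43.9 CPM (2.84 ± 0.20, adjusted p = 5.05e-06, edgeR). Alternative oxidase 1C (AT3G27620), the other one tested, was called lower, with 0 A. arenosa reads against 502 in the controls (at least 6.05-fold lower).

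The 4 lower loci had almost no A. arenosa read. ATMG00670 had 0 reads there and 221 in the A. thaliana controls, at least 2.66-fold lower. ATMG01350 had 0 and 93 (at least 1.11-fold lower), and ATMG00400 had 0 and 76, where the control level was itself under the floor, so no fold is given. ATMG01170 had 1 read and 216 (15.7-fold lower, exact 95% interval 2.79 to 624). The nuclear loci AT2G07835, partner of ATMG00400, and AT2G07719, partner of ATMG00610, also had 0 A. arenosa reads, against 296 and 205 in the controls (at least 3.56-fold and 2.49-fold lower). In hybrid seeds ATMG00670 was present in all 4 libraries, at 13.6 to 25.7 CPM.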

How the data were processed

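RNA of seeds and siliques was selected for poly-A tails and sequenced without strand marking, per the labels' protocols. The deposited tables hold whole-number read counts per locus, which the authors made by aligning to TAIR10 with BWA, per the submitters' processing notes; the version, the counting rule and the treatment of reads that match several places are not given in the sources used here. Every value column was mapped to a sample by its header (0 were not). Each A. thaliana control column is the sum of 2 records, 1 of them titled "single", a word the labels do not explain, and was used as 1 library, so 18 records gave 14 libraries. Replicates differed by more than sampling noise (chi-square per degree of freedom 14.0 to 31.2).

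Counts were tested with edgeR 4.0.16 (limma 3.58.1, R 4.3.3): TMM scaling, the filterByExpr filter, group means, quasi-likelihood F test, Benjamini-Hochberg adjustment over all loci tested and a threshold of 0.05. The 8 A. thaliana and hybrid seed libraries were fitted together, with the A. arenosa libraries added for their comparison, and hybrid seeds with siliques in another fit. SE is the log2 fold change over the root of F. DESeq2 1.42.0 was an alternative, with other scaling, filters, designs and left-out libraries. The main edgeR procedure was run on simulated data for the Col hybrid against its control, A. arenosa against the controls and Col siliques against seeds. The other comparisons, among them the difference of hybrid effects, and the alternatives were not simulated. Depth was 1777781 to 16149496 reads per library. Intervals and floors (3 reads per library) cover counting error only, at 95% confidence.

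The members and gene lists were chosen with earlier results of these data known. The rule named, in each comparison, up to 5 called members with the largest changes in each direction, the members with most reads, and the 2 called nuclear genes of smallest adjusted p per list. For siliques and A. arenosa the nuclear lists are given as counts with few examples. ATMG00130 in the C24 hybrid, ATMG00660 in siliques and members named for not being called were chosen after their values were seen.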

Additional observations from a re-analysis of the deposited data

Results flagged for a closer look

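In 2 nuclear genes of mitochondrial function the hybrid effect differed between the crosses by a test of that difference itself (edgeR's quasi-likelihood test, adjusted over all loci tested, 2 libraries per group). For AOX1A (AT3G22370) the effect in the Col cross minus that in the C24 cross was 2.44 ± 0.37 on the log2 scale (adjusted p = 0.0201), with both Col hybrid libraries above both Col controls and both C24 hybrid libraries below both C24 controls. For AT2G47380, of the cytochrome c oxidase subunit Vc family, it was 1.64 ± 0.23 (adjusted p = 0.0155), with both Col hybrid libraries above both controls and overlapping libraries in C24. In both genes the Col control level was below the C24 control level (log2 differences of -1.28 and -1.29). No mitochondrial locus met this test. Groups of 2 libraries allow no test for a single stray library.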

How the results depend on the processing

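No called mitochondrial locus changed sign under any alternative tried, except 2 in A. arenosa seeds, ATMG00130 and ATMG00730, without A. arenosa control 1 (-1.47 and -0.35). Calls kept under every alternative in which the locus was tested were 5 of 10 in the Col hybrid and 10 of 20 in the C24 hybrid. They were 17 of 36 and 20 of 37 in Col and C24 siliques and 8 of 30 in A. arenosa. Each comparison between Col and C24 hybrids or siliques kept 0 of 2. A locus that an alternative's filter left out was counted as neither lost nor reversed there. A fit over all 7 groups gave 5 calls in the Col hybrid, 10 in the C24 hybrid and 0 between hybrids and between siliques. It called 4.67, 17.4, 5.04 and 2.7% of all loci there, against 16.8, 31.8, 9.78 and 4.31% in the main fits. With no filter on low counts there were 1 for the difference of hybrid effects, 5 between hybrids, 3 between controls and 5 between siliques. Of all loci 3.27, 7.7, 11.5 and 6.8% were called there. DESeq2 gave 1 for the difference of effects and 3 between controls, and the compared groups alone gave 2 between controls. These stood beside 3.32, 15.2 and 17.4% of all loci. A minimum of 5 CPM in 2 libraries left 17 calls in Col siliques and 20 in C24 siliques, since fewer loci were tested. Of all loci 56.1 and 61.4% were called under that minimum.

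With 1 library left out the counts ranged from 10 to 14 (Col hybrid), 13 to 18 (C24 hybrid), 0 to 1 (difference of effects), 0 to 5 (between hybrids), 0 to 1 (between controls), 13 to 30 (A. arenosa), 17 to 31 (Col siliques), 21 to 34 (C24 siliques) and 1 to 2 (between siliques). The share of all loci called was below that of the main fit in each of these fits, except for the difference of effects. There the share moved either way. The cause of these shifts was not tested.

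The replicate numbers were not taken to pair the libraries, since the labels tie them to no shared plant, batch or day. Deviations of equal numbers correlated at -0.399 (between siliques) to 0.690 (between Col and C24 controls). The C24 hybrid stood at 0.353 with the C24 control and 0.383 with the Col control. The Col hybrid stood at -0.102 to -0.074 with these groups. What libraries of equal number shared was not tested. Whether adaptors differed between crosses could not be told from the labels. A replicate block gave 11, 22, 0, 28, 32, 36 and 2 calls for the Col hybrid, C24 hybrid, difference of effects, A. arenosa, Col siliques, C24 siliques and between siliques, 4 between hybrids and 2 between controls. Of all loci the block called 17.8, 32.5, 1.67, 55, 49.2, 55.1, 3.02, 10.4 and 18%, in the same order. With the pairing crossed there were 2 calls between hybrids and 2 between siliques, beside 10.6 and 4.59% of all loci.

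The share of gene reads without ATMG00030 was 0.0200% in Col control, 0.0233% in C24 control, 0.0521% in Col hybrid, 0.0774% in C24 hybrid, 0.149% in A. arenosa, 0.00711% in Col silique and 0.0105% in C24 silique libraries. Both this and the next alternative were chosen after seeing the data. With ATMG00030 kept and partner reads added, the share was 0.151% in the C24 hybrid, 0.0145% in Col siliques and 0.0233% in C24 siliques, and over the loci without a partner, ATMG00030 included, it was 0.0104% and 0.0179% in these siliques. The A. arenosa libraries, with the fewest reads, limit what can be seen at low loci.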
